A study of Mus musculus with 8 samples.

Results

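The genes described here are 7 markers of B cells and plasma cells (Cd79a, Cd79b, Ms4a1, Cd22, Mzb1, Tnfrsf17 and Pou2af1), chosen by name from the 15859 genes with counts in the distal colon of WT and Hsf1 null mice. Hsf1 encodes heat shock factor 1, a transcription factor of the stress response. All animals were male mice of a mixed BALB/c x 129SvEV background, labelled as 10 weeks old, and the null mice lack Hsf1 in every cell type. There were 4 groups of 2 mice each: untreated WT mice, untreated Hsf1 null mice (both called day 0), and WT and Hsf1 null mice taken 15 days after the start of AOM-DSS treatment. AOM-DSS means 1 injection of the carcinogen azoxymethane (10 mg/kg) at 8 weeks of age, followed from day 7 by 5 days of drinking water with 1.5% dextran sulfate sodium, an agent that damages the epithelial lining. The labels time the collection only as after the DSS, while the sample titles give day 15. Each library came from whole tissue, so that fewer cells of a type and less RNA per cell cannot be told apart in any value below.

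B cells recognise antigen through a surface immunoglobulin that signals through the paired proteins CD79A and CD79B. A B cell that is activated, often in the germinal centre of a lymphoid follicle, can lose its B cell surface proteins and become a plasma cell, which secretes antibody. The colon wall holds isolated lymphoid follicles rich in B cells and a lamina propria rich in plasma cells, most of which make IgA that is carried across the epithelium into the lumen. Of the 7 genes, Ms4a1 (CD20) and Cd22 (a lectin that restrains receptor signalling) mark B cells before the plasma cell stage, and Cd79a and Cd79b mark the lineage as a whole. Mzb1 (a chaperone of the endoplasmic reticulum that helps antibody assembly) and Tnfrsf17 (BCMA, a survival receptor) are highest in plasma cells. Pou2af1 encodes OCA-B, a coactivator that B cells and plasma cells share.

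OCA-B acts with the factors OCT1 and OCT2 at the octamer motif, and Ets family factors such as PU.1 and SPI-B act at Ets motifs. Both motifs were looked for in the RefSeq promoters (GRCm38.p6, 250 bases before to 50 bases after the start) of the members. Promoters of 4 of the 7 genes could be matched. The octamer, spelled ATGCAAAT on either strand, was in 0 of these 4 promoters and in 570 of 32851 promoters of the same length (1.74%), which says only that these letters are not in this window. The Ets core, spelled AGGAAGT on either strand, was in 1 of the 4, that of Cd79a, and in 3072 of the 32851 (9.35%). The promoter of Cd79a (chr7:24897247-24897546, plus strand) is printed for this match, which is in capitals and begins 55 bases before the RefSeq start. That start lies downstream of the first base of Cd79a in the GENCODE annotation used for gene positions below, so the match is inside the gene by the latter. That of Pou2af1 (chr9:51213440-51213739, plus strand), which holds neither motif, is printed because Pou2af1 was called in 2 of the comparisons below.
Cd79a: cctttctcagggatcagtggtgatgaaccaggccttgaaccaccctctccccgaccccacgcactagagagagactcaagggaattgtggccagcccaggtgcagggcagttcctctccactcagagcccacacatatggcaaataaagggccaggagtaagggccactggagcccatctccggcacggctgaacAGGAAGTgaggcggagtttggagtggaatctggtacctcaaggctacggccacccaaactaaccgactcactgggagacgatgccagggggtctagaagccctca
Pou2af1: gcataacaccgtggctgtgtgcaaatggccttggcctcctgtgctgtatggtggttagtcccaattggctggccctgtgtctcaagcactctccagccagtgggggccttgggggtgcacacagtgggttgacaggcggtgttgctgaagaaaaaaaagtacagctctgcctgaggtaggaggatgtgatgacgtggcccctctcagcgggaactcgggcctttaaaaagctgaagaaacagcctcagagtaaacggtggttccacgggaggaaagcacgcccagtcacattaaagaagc

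Total counts ranged from 2553348 to 12440257 per library, and replicate 2 of WT day 0 and of Hsf1 null day 0 were the 2 smallest libraries, at 2553348 and 2675976. Values are given as CPM, the counts of a gene as a share of its library's total, per 1000000 counts, after adjustment by the trimmed mean of M-values (TMM). Hsf1 itself was at 40.5 and 36.5 CPM in WT day 0, 50.4 and 45.9 CPM in WT day 15, 14.0 and 11.9 CPM in null day 0, and 13.5 and 9.09 CPM in null day 15. Every null library was below every WT library, in keeping with its label. The log2 fold change, null minus WT, was -2.10 at day 15 (SE 0.30, edgeR adjusted p = 0.0137) and -1.57 at day 0 (SE 0.30, adjusted p = 0.775). A gene was called when its Benjamini-Hochberg adjusted p over the 14371 genes tested by edgeR's quasi-likelihood test was under 0.05 and its log2 fold change exceeded 1 in size. All 7 markers passed the filter on low counts. For a single gene, 2 mice against 2 cannot give an exact two-sided permutation p below 0.333, so the spread behind each p below is shared over genes and groups.

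The mean level of each of the 7 markers was highest in the treated WT group, although for Ms4a1 and Cd22 1 of its 2 mice lay among the other groups. Pou2af1 rose in WT mice between day 0 and day 15, and Pou2af1 and Mzb1 were lower in treated Hsf1 null mice than in treated WT mice. The other 5 markers pointed the same way in both comparisons without being called. In Hsf1 null mice no marker was called between day 0 and day 15. The plot of CPM by mouse shows each value.

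**Figure D1:**
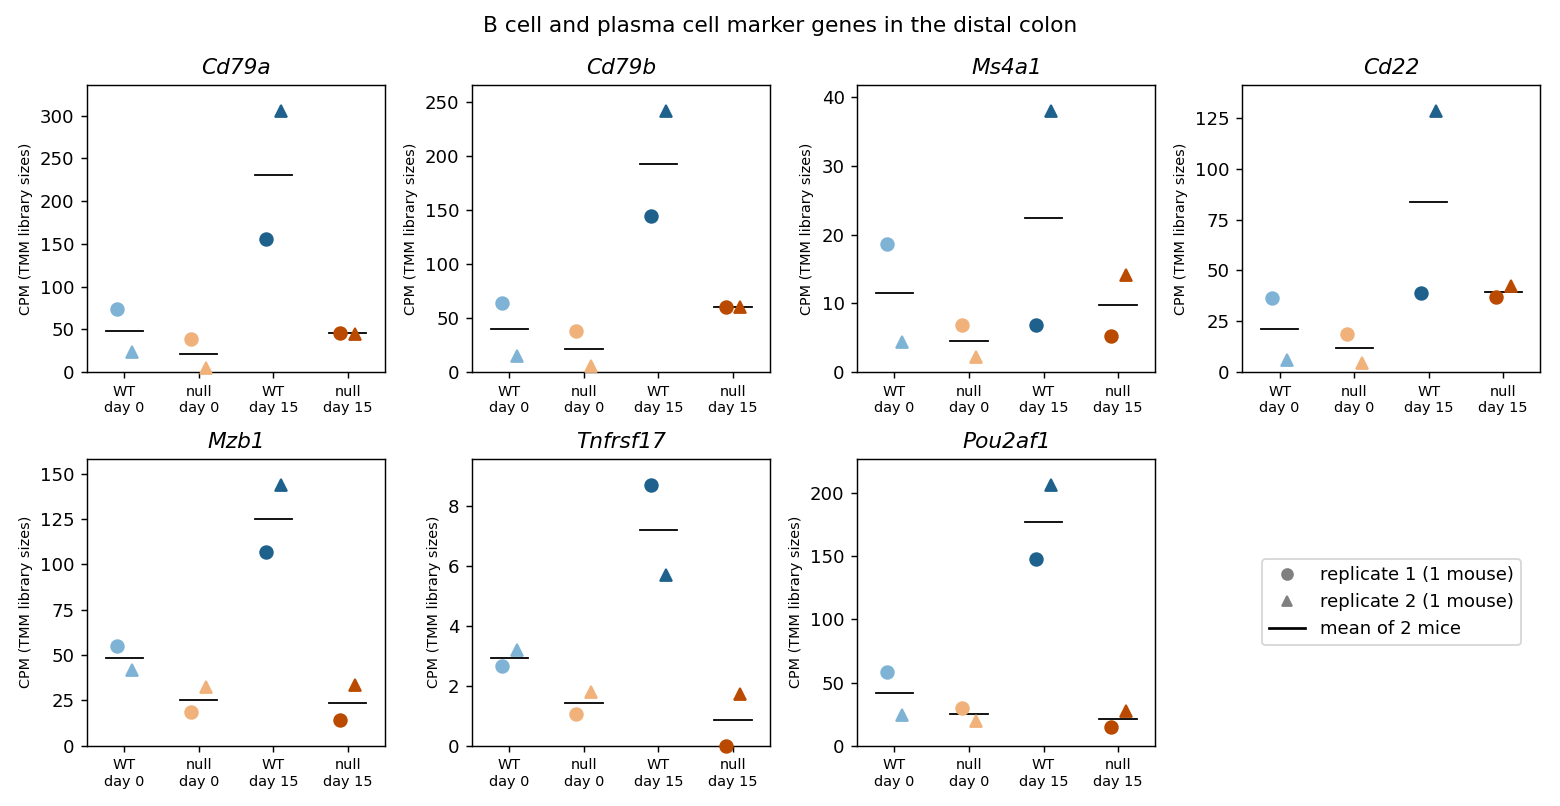
CPM of the 7 markers (y axis, linear and from 0, each panel with its own scale) in each of the 8 mice (points; circles replicate 1, triangles replicate 2), with the mean of the 2 mice of a group as a line. Both WT day 15 mice lie above all 6 other mice for Cd79a, Cd79b, Mzb1, Tnfrsf17 and Pou2af1, but not for Ms4a1 and Cd22, for which 1 WT day 15 mouse lies among the others.

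Pou2af1 (chromosome 9, 51213708 to 51240080, plus strand) was at 58.5 and 24.6 CPM in WT day 0, 30.0 and 19.8 CPM in null day 0, 148 and 207 CPM in WT day 15, and 14.9 and 27.4 CPM in null day 15. The lower of the treated WT mice was over 2 times the highest untreated mouse, and of the treated null mice 1 lay below and 1 within the range of the untreated mice. The mean rose from 41.5 ± 24.0 to 177 ± 41.6 CPM (SD, n = 2) in WT mice, a fitted log2 fold change of 2.06 (SE 0.44, edgeR adjusted p = 0.0245). In treated mice the null mean was 21.1 ± 8.85 CPM, a log2 fold change against WT of -3.06 (SE 0.45, adjusted p = 0.0161). Null mice at day 15 against day 0 gave -0.26 (SE 0.44, adjusted p = 0.718), and null against WT mice at day 0 gave -0.75 (SE 0.43, adjusted p = 0.819). The null change minus the WT change was -2.32 (SE 0.61, adjusted p = 0.389). It was not called here and was called by DESeq2 (-2.34, adjusted p = 0.0173). The rise in WT mice was not called without WT day 0 replicate 2 (1.61, adjusted p = 0.144) or WT day 15 replicate 2 (1.80, adjusted p = 0.120). The difference at day 15 was not called when null day 0 replicate 1 (adjusted p = 0.0526), null day 0 replicate 2 (0.0518), WT day 15 replicate 2 (0.0756) or null day 15 replicate 1 (0.116) was left out. With only the 2 groups compared in the fit its adjusted p was 0.0545. Over all alternatives its log2 fold change lay between -3.57 and -2.68.

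Mzb1 was at 54.9 and 42.1 CPM in WT day 0, 18.7 and 32.3 CPM in null day 0, 107 and 144 CPM in WT day 15, and 14.0 and 33.7 CPM in null day 15. The treated WT mice were the highest and the untreated WT mice came next. The 4 null mice of both days shared the lowest range without overlapping the WT mice. Null against WT mice at day 15 gave a log2 fold change of -2.39 (SE 0.43, edgeR adjusted p = 0.0241), from means of 125 ± 26.4 CPM in WT and 23.8 ± 13.9 CPM in null mice (SD, n = 2). The WT change was 1.36 (SE 0.41, adjusted p = 0.0693) and the null change -0.06 (SE 0.42, adjusted p = 0.933). The difference between the 2 changes was -1.42 (SE 0.59, adjusted p = 0.562). At day 0 the null mice were also the lower, by a log2 fold change of -0.97 (SE 0.42, adjusted p = 0.783). The call at day 15 was lost on leaving out null day 0 replicate 1 (adjusted p = 0.0530), null day 0 replicate 2 (0.0528), WT day 15 replicate 2 (0.118) or null day 15 replicate 1 (0.124). It was also lost with only the 2 groups compared in the fit (adjusted p = 0.0844) and without both small day 0 libraries (0.0806). Mzb1 (chromosome 18, 35647267 to 35649367, minus strand) shares 695 exon bases with another annotated gene on the same strand, and the sources used here do not give how such reads were counted.

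Tnfrsf17 (chromosome 16, 11313812 to 11320074, plus strand) had the lowest mean CPM of the 7 in every group. Per kilobase of exon, Ms4a1 was lower in all groups but null day 15. Tnfrsf17 had 27 and 8 counts in WT day 0, 13 and 5 in null day 0, 100 and 54 in WT day 15, and 0 and 13 in null day 15. These counts are 2.64 and 3.17 CPM, 1.07 and 1.80 CPM, 8.69 and 5.70 CPM, and 0 and 1.74 CPM. The order of the groups was that of Mzb1, and the count of 0 allows a level of up to 0.465 CPM (3 counts in that library, counting error only). Over the summed counts of the 2 mice, 154 in WT and 13 in null at day 15, the level was 7.87 times as high in WT mice (95% exact interval 4.47 to 15.1, which covers counting error and not the spread between mice). The fitted differences were not called at day 15 (log2 fold change -2.98, SE 0.94, adjusted p = 0.103) or between WT day 15 and day 0 (1.33, SE 0.87, adjusted p = 0.349). Without null day 15 replicate 2, which leaves only the library with 0 counts in that group, Tnfrsf17 was called (adjusted p = 0.0143), and it was also called by DESeq2 (-3.03, adjusted p = 0.0193) and after thinning all libraries to the smallest (-4.77, adjusted p = 0.0324).

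Cd79a (chromosome 7, 24897381 to 24902197, plus strand) was at 73.8 and 23.0 CPM in WT day 0, 38.2 and 4.67 CPM in null day 0, 155 and 305 CPM in WT day 15, and 45.4 and 44.8 CPM in null day 15. Cd79b (chromosome 11, 106311341 to 106314762, minus strand) was at 64.0 and 15.1 CPM, 38.1 and 5.39 CPM, 144 and 242 CPM, and 59.8 and 60.1 CPM in the same order. Both treated WT mice were above all others for both genes, and both treated null mice were above both untreated null mice. Replicate 2 of each day 0 group, the small libraries, lay far below replicate 1. The 2 mice of WT day 0 differed 3.21-fold for Cd79a and 4.24-fold for Cd79b, and those of null day 0 8.19-fold and 7.07-fold, against 1.01-fold for both genes in null day 15. Between day 0 and day 15 the log2 fold changes were 2.21 (SE 0.73, adjusted p = 0.0874) for Cd79a and 2.23 (SE 0.74, adjusted p = 0.0867) for Cd79b in WT mice. They were 0.97 (SE 0.73, adjusted p = 0.386) and 1.36 (SE 0.73, adjusted p = 0.226) in null mice. Null against WT mice at day 15 gave -2.35 (SE 0.74, adjusted p = 0.102) for Cd79a and -1.69 (SE 0.72, adjusted p = 0.197) for Cd79b. The ratio of Cd79a to Cd79b counts lay between 0.744 and 1.53 in the 8 mice. At day 15 it was 1.07 and 1.26 in WT mice and 0.759 and 0.744 in null mice.

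Ms4a1 (chromosome 19, 11249675 to 11266241, minus strand) was at 18.6 and 4.36 CPM in WT day 0, 6.89 and 2.15 CPM in null day 0, 6.78 and 38.0 CPM in WT day 15, and 5.27 and 14.2 CPM in null day 15. Its groups overlapped in every comparison, and the 2 treated WT mice differed 5.60-fold. Cd22 (chromosome 7, 30865402 to 30880342, minus strand) was at 36.3 and 5.95 CPM in WT day 0, 18.5 and 4.67 CPM in null day 0, 38.7 and 128 CPM in WT day 15, and 36.7 and 42.4 CPM in null day 15. For Cd22, WT day 15 replicate 1 lay between the 2 treated null mice, and replicate 2 lay 3.32-fold above it. The log2 fold change in WT mice was 0.87 for Ms4a1 (SE 0.86, adjusted p = 0.542) and 1.89 for Cd22 (SE 0.78, adjusted p = 0.150). In null mice it was 0.97 for Ms4a1 (SE 0.91, adjusted p = 0.493) and 1.66 for Cd22 (SE 0.79, adjusted p = 0.178). Null against WT mice at day 15 gave -1.19 (SE 0.86, adjusted p = 0.433) and -1.08 (SE 0.76, adjusted p = 0.417). Without WT day 15 replicate 2 these became 0.52 and 0.03. Cd22 shares 479 exon bases with a gene annotated on the opposite strand.

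In the comparison of WT mice at day 15 with WT mice at day 0, which asks what the treatment changes in WT colon, 1 of the 7 markers was called, against 7.74% of all genes tested (499 higher and 613 lower). All 7 log2 fold changes were positive, with a median of 1.89 (from 0.87 for Ms4a1 to 2.23 for Cd79b) against a median of 0.0046 over all genes. Both treated mice were above both untreated mice for 6 of the 7, all but Ms4a1, where 31% of all genes had such a pattern. Without both small day 0 libraries 0 of the 7 were called, and 4 genes in all.

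For Hsf1 null mice at day 15 against day 0, 0 of the 7 were called by edgeR or DESeq2, against 11.8% of all genes called by edgeR. Of the 7, 0 had an unadjusted p under 0.05, which 4685 of the 14371 genes had. The median log2 fold change was 0.97 (from -0.55 for Tnfrsf17 to 1.66 for Cd22), against 0.05 over all genes. The 4 genes with positive values were Cd79a, Cd79b, Ms4a1 and Cd22, and the 3 with negative values were Mzb1, Tnfrsf17 and Pou2af1. Both treated mice were above both untreated mice for Cd79a, Cd79b and Cd22 (31% of all genes). Without null day 0 replicate 1, Cd79a and Cd79b were called (3.27 and 3.47, adjusted p = 0.0474 for both), a comparison that then rested on the small library alone.

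The untreated genotypes did not give a call for any of the 14371 genes by edgeR (0%), with 904 at an unadjusted p under 0.05 and 18 called by DESeq2. All 7 markers had a lower fitted level in null mice. Their median log2 change was -0.97 (from -1.29 to -0.75), against -0.01 over all genes, and of the 7 Mzb1 had an unadjusted p under 0.05. Mzb1 and Tnfrsf17 did not overlap between the genotypes, a pattern seen in the lower direction in 18.4% of all genes. The sign for the median of the 7 rested on 1 mouse: without WT day 0 replicate 1 it was 0.04.

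In treated mice, null against WT, 2 of the 7 were called, both lower, against 3.17% of all genes (275 higher and 180 lower). All 7 fitted values were below 0. Their median was -2.35 on the log2 scale, against -0.04 over all genes. The genotypes did not overlap for 5 of the 7 (all but Ms4a1 and Cd22), against 28.6% of all genes in this direction. Without both small day 0 libraries Pou2af1 was the only marker called, among 18 genes in all. The test of whether the treatment changed a marker differently in the 2 genotypes called 0 of the 7 (0.00696% of all genes), with a median of -1.24 and unadjusted p under 0.05 for Pou2af1 and Mzb1. The comparisons share groups of mice, so their values are not independent of one another. The plot of fitted changes sets the 4 comparisons side by side.

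**Figure D2:**
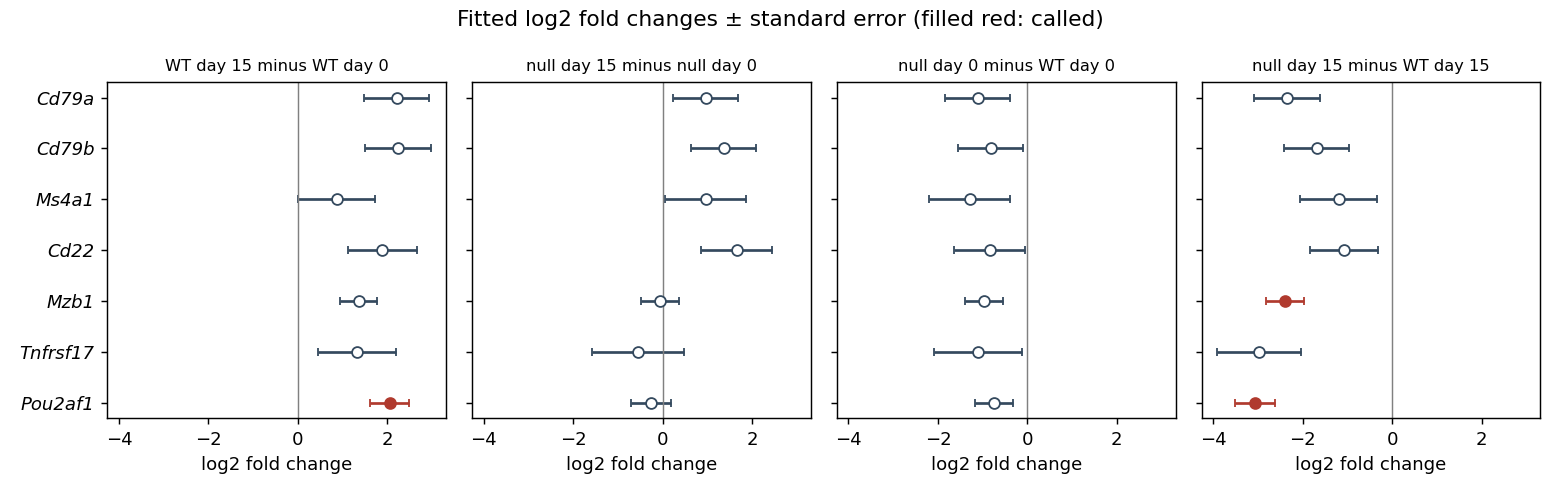
Fitted log2 fold change (x axis) of each marker (y axis) in 4 comparisons, with bars of 1 standard error and called genes filled in red. Values lie right of 0 for all 7 markers in treated WT mice and left of 0 for all 7 in treated null against WT mice, and in null mice over time Mzb1, Tnfrsf17 and Pou2af1 sit at -0.06, -0.55 and -0.26.

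Per kilobase of annotated exon, which allows levels to be compared between genes, Mzb1 had the highest mean of the 7 in WT day 0 at 39.9 ± 7.45 CPM per kb (SD, n = 2), followed by Cd79a at 33.2 ± 24.6 and Cd79b at 27.6 ± 24.2, which did not differ beyond that spread. Cd79a was above Mzb1 within replicate 1 (50.6 against 45.1 CPM per kb) and below it within replicate 2 (15.8 against 34.6). In WT day 15 the order of the means was Cd79a (158 ± 72.8 CPM per kb), Cd79b (135 ± 48.1), Mzb1 (103 ± 21.7) and Pou2af1 (69.5 ± 16.3). This order held within each of the 2 mice, although between mice Cd79a overlapped Cd79b and Cd79b overlapped Mzb1. In null day 15 Cd79b led at 41.9 ± 0.149 CPM per kb, above Cd79a at 31.0 ± 0.316, Mzb1 at 19.6 ± 11.5 and Pou2af1 at 8.29 ± 3.47, with no overlap between neighbours in that order. Cd22, Tnfrsf17 and Ms4a1 were the lowest 3 in WT mice of both days. The order among genes depends on exon length taken over all annotated transcripts, which for Ms4a1 was 6187 bases against 1457 for Cd79a.

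The markers did not vary as 1 block over the 8 mice. Pearson's r of log2 CPM was 0.98 between Cd79a and Cd79b, 0.955 between Cd79b and Cd22, 0.921 between Mzb1 and Pou2af1 and 0.903 between Mzb1 and Tnfrsf17. It was 0.135 between Cd22 and Tnfrsf17 and 0.44 between Cd22 and Mzb1. These correlations describe 8 mice in 4 groups with unequal depth and carry no test. Read through counts within a library, which need no scaling, the ratio of Mzb1 to Cd79a was 0.744 and 1.83 in WT day 0, 0.489 and 6.92 in null day 0, 0.687 and 0.472 in WT day 15, and 0.307 and 0.752 in null day 15. The 2 small day 0 libraries had the highest ratios. The ratio of Mzb1 to Ms4a1 was 2.95 and 9.64 in WT day 0, 2.71 and 15 in null day 0, 15.7 and 3.79 in WT day 15, and 2.65 and 2.38 in null day 15, so that high ratios were not particular to 1 group.

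**Figure D3:**
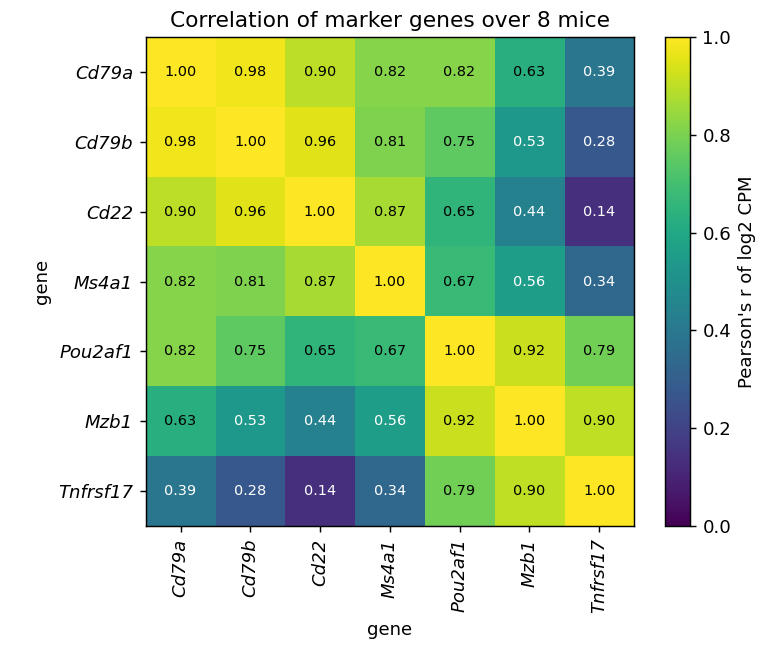
Pearson's r of log2 CPM over the 8 mice for each pair of markers (both axes), coloured from 0 to 1. Cd79a, Cd79b, Cd22 and Ms4a1 have r of at least 0.80 with each other, and the lowest value is 0.14 (rounded) for Cd22 with Tnfrsf17.

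Genes that act with the markers were read from lists given by function. Of 28 measured genes of the B cell receptor complex and its signalling, 4 rose in WT mice by day 15, a comparison in which 499 of all 14371 genes were called higher. These were Vpreb3, a chaperone-like protein of the B lineage (log2 fold change 2.96, SE 0.72, adjusted p = 0.0363), Vav1, a guanine nucleotide exchange factor (1.95, adjusted p = 0.0206), Plcg2, a phospholipase (1.90, adjusted p = 0.0406), and the kinase Syk (1.59, adjusted p = 0.0129). Syk was the 1 gene of the list that rose in null mice (1.34, SE 0.28, adjusted p = 0.0206), where 761 of all genes were called higher. The kinase Lyn was the 1 gene that was lower in treated null than in treated WT mice (-1.44, SE 0.33, adjusted p = 0.0476), where 180 of all genes were called lower. DESeq2 called 9 genes of the list higher in WT mice over time, where it called 1739 of all genes in either direction. Syk, Plcg2 and Vav1 were among the 9 but not Vpreb3. DESeq2 called 5 higher in null mice over time (Blk, Syk, Btk, Ptpn6 and Vav1), where edgeR after thinning called 4 (Cd72, Fcmr, Syk and Vav1). In treated null against WT mice DESeq2 called 3 lower (Fcgr2b, Fcrla and Lyn), where it called 1209 of all genes in either direction. Vav1, Plcg2, Syk and Lyn are also used by myeloid or T cells. The list's median log2 fold change was 1.58 in WT mice and 1.17 in null mice over time, and -0.91 in null against WT mice at day 15.

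None of 14 B lineage transcription factor genes and none of 9 tested germinal centre genes was called in any of the 5 comparisons by edgeR. The most abundant factors were Irf8 and Id3. Treated WT mice had 116 and 263 CPM of Irf8 against 164 and 119 CPM in treated null mice. Bcl6, the germinal centre repressor, was at 14.3 and 35.3 CPM in treated WT and 16.7 and 11.6 CPM in treated null mice. Il21r, the receptor of a cytokine from follicular helper T cells, was at 10.5 and 40.5 CPM and 9.77 and 21.1 CPM. The second treated WT mouse was the highest of the 8 for Irf8, Bcl6 and Il21r but not for Id3, which was at 86.1 CPM there and at 147 and 131 CPM in WT day 0. The smallest adjusted p of edgeR was 0.0738 in the factor list and 0.0643 in the germinal centre list, both in null against WT mice at day 15. DESeq2 called 2 factors (Ebf1 and Pou2f2) and 1 germinal centre gene (Nuggc) lower there, where it called 1209 of all genes in either direction. Over time it called Spib and Pou2f2 higher in WT mice, Ikzf1 higher in null mice, and Il21r higher in both genotypes. Il21r was also called in WT mice by edgeR after thinning all libraries to the smallest.

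Of 23 plasma cell genes, 5 were lower in treated null than in treated WT mice and 0 were higher, where 180 of all 14371 genes were called lower and 275 higher. Jchain, which joins IgA and IgM into polymers, was at 1705 and 1617 CPM in WT day 0, 471 and 1378 CPM in null day 0, 2745 and 2613 CPM in WT day 15, and 46.8 and 237 CPM in null day 15. The treated null mice were the lowest of the 8 and the treated WT mice the highest (null minus WT at day 15, log2 fold change -4.24, SE 0.75, adjusted p = 0.0240). Derl3, a protein of endoplasmic reticulum degradation, was also lower (-2.86, adjusted p = 0.0255). The others were Fam46c, a poly(A) polymerase that supports antibody secretion (-1.86, adjusted p = 0.0369), Prdm1, the gene of the plasma cell regulator BLIMP-1 (-1.73, adjusted p = 0.0449), and Xbp1, a factor of the secretory programme (-1.35, adjusted p = 0.0279). Xbp1, Derl3 and Prdm1 are also used by other cells of the colon, goblet cells among them.

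Over time in null mice, where 931 of all 14371 genes were called lower and 761 higher, 4 plasma cell genes fell, Jchain (-2.70, SE 0.70, adjusted p = 0.0365), Fam46c (-1.73, adjusted p = 0.0257), Ell2 (-1.51, adjusted p = 0.0215) and Xbp1 (-1.25, adjusted p = 0.0201). Creld2, a gene of endoplasmic reticulum stress, rose (1.41, adjusted p = 0.0407). In WT mice, where 499 of all genes were called higher, 1 of the 23 was called, Irf4, a factor that B cells use on the way to plasma cells (1.53, SE 0.41, adjusted p = 0.0499). DESeq2 called Creld2 higher in WT mice too. In treated null against WT mice it called 7 of the 23 lower, Irf4 and Ccr10 besides the 5 above, and 1209 of all genes in either direction. None of the 23 passed the test for a difference between the 2 changes by edgeR, and the smallest adjusted p there was 0.328, while DESeq2 called Xbp1 lower. The immunoglobulin genes themselves, a separate list of 12 and the main products of plasma cells, were not analysed here.

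Of the ligands and receptors of the BAFF and APRIL survival pathway, 5 were tested (Tnfrsf17 among them). None was called by edgeR. Tnfsf13b, which encodes BAFF, was at 10.2 and 5.95 CPM in WT day 0, 6.32 and 11.1 CPM in null day 0, 34.9 and 25.3 CPM in WT day 15, and 3.10 and 10.2 CPM in null day 15. The treated WT mice were the highest 2, with a log2 fold change over time of 1.85 (SE 0.55, adjusted p = 0.0653) and, null against WT at day 15, of -2.17 (SE 0.55, adjusted p = 0.0621). Tnfrsf13c, the BAFF receptor, was at 16.4 and 58.7 CPM in treated WT mice and 14.0 and 23.0 CPM in treated null mice, which overlapped. DESeq2 called Tnfsf13b higher in WT mice over time, and Tnfsf13b and Tnfrsf17 lower in treated null mice.

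Of 19 tested genes of lymphoid follicles and B cell homing, 5 rose and 2 fell in WT mice by day 15, where 499 of all 14371 genes were called higher and 613 lower. Cxcl13, the chemokine that draws B cells into follicles, was at 65.4 and 18.3 CPM in WT day 0, 56.8 and 30.2 CPM in null day 0, 420 and 397 CPM in WT day 15, and 19.5 and 45.0 CPM in null day 15. It was high in both treated WT mice and in no other mouse, with log2 fold changes of 3.24 (SE 0.58, adjusted p = 0.0145) in WT mice and -3.66 (SE 0.59, adjusted p = 0.0210) in null against WT mice at day 15. Madcam1, the vessel addressin of gut-homing lymphocytes (3.44, adjusted p = 0.0245), Ltb, lymphotoxin beta (2.67, adjusted p = 0.0245), Ccr7 (1.98, adjusted p = 0.0207) and Itgb7, the integrin that binds MAdCAM-1 (1.91, adjusted p = 0.0265), also rose in WT mice. Pigr, the epithelial receptor that carries IgA into the lumen (-2.09, adjusted p = 0.0355), and Ccl28, an epithelial chemokine for IgA plasma cells (-1.82, adjusted p = 0.0177), fell. In null mice Ltb (2.49, adjusted p = 0.0257) and Itgb7 (2.30, adjusted p = 0.0167) rose. Madcam1 was called higher in null mice too by DESeq2 and after thinning, which also called Ccl19.

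At day 15, Cxcl12, which retains plasma cells in their niches, was also lower in null than in WT mice (-2.21, SE 0.46, adjusted p = 0.0362), as was Tnfsf11, the gene of RANKL (adjusted p = 0.0498). Tnfsf11 had 34 and 98 counts in the WT mice and 2 and 3 in the null mice, a level 17.5 times as high in WT mice over the summed counts (95% exact interval 7.33 to 54.9, counting error only), and it was not called after thinning. DESeq2 called 7 genes of the list lower in treated null mice and 2 higher, Ccl28 and Pigr, where it called 1209 of all genes in either direction. None of the 19 genes passed edgeR's test for a difference between the 2 changes, while DESeq2 called Cxcl13 and Cxcl12 lower and Pigr higher. Without both small day 0 libraries, 1 of the calls in all 12 tested lists other than the markers remained, Cxcl13 in null against WT mice at day 15.

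Markers of other cell types also differed between the groups, as the plot of list levels shows. Whether they moved together with the 7 genes was not tested. The 14 measured T cell markers summed to between 43.2 and 177 CPM in WT day 0, 32.3 and 52.8 CPM in null day 0, 219 and 355 CPM in WT day 15, and 94.6 and 148 CPM in null day 15. Thy1 alone made up 98.9 CPM of the sum in WT day 0 replicate 1. Cd3e rose in both genotypes (2.49, adjusted p = 0.0201 in WT and 2.75, adjusted p = 0.0171 in null mice) and Zap70 in WT mice (2.43, adjusted p = 0.0368), while Zap70 was called in null mice by DESeq2 and after thinning. Of all 14371 genes, edgeR called 499 higher in WT mice and 761 higher in null mice. None of the 14 was called in null against WT mice at day 15 by edgeR (smallest adjusted p = 0.0667), and DESeq2 called Cd8b1 lower there. Over time DESeq2 called 9 of the 14 higher in WT mice, where it called 1739 of all genes in either direction, and 5 in null mice. Cd5 had 0 counts in WT day 0 replicate 2 and Cd8b1 in null day 0 replicate 2. The 12 macrophage and monocyte markers summed to between 478 and 1114 CPM in WT day 0, 506 and 639 CPM in null day 0, 1525 and 2273 CPM in WT day 15, and 396 and 928 CPM in null day 15. Lyz2 alone made up 642 CPM of the sum in WT day 0 replicate 1 and 1006 CPM in WT day 15 replicate 2. Of the 12, C1qa (2.03, adjusted p = 0.00881), C1qc (1.93, adjusted p = 0.0165), C1qb (1.58, adjusted p = 0.0476) and Cd14 (1.53, adjusted p = 0.0122) rose in WT mice, where 499 of all 14371 genes were called higher. In treated null mice C1qa (-2.16, adjusted p = 0.0137) and C1qb (-1.83, adjusted p = 0.0482) were lower than in treated WT mice, where 180 of all genes were called lower. Cd163 had 0 counts in null day 15 replicate 1. DESeq2 called 6 of the 12 higher in WT mice over time, 2 higher in null mice over time (Cd68 and C1qc), and 4 lower in treated null than in treated WT mice. In the first and last of these comparisons it called 1739 and 1209 of all genes in either direction.

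Of 8 smooth muscle markers, 6 fell in WT mice (613 of all 14371 genes were called lower there), the 4 largest changes being those of Actg2 (-2.28, adjusted p = 0.0161), Tagln (-1.89, adjusted p = 0.0207), Synm (-1.84, adjusted p = 0.00754) and Des (-1.80, adjusted p = 0.0245). Synm was higher in treated null than in treated WT mice (1.28, adjusted p = 0.0340). Their sum lay between 7073 and 9682 CPM in WT day 0, 6827 and 6947 CPM in null day 0, 2076 and 3546 CPM in WT day 15, and 5146 and 5945 CPM in null day 15. The 12 colon epithelium markers summed to between 14590 and 21259 CPM in WT day 0, 19746 and 27042 CPM in null day 0, 17254 and 21169 CPM in WT day 15, and 28359 and 34845 CPM in null day 15. No marker of either list was at 0. Within them Slc26a3 fell in both genotypes (-3.63, adjusted p = 0.00655 in WT and -3.27, adjusted p = 0.0125 in null mice). Lgr5 fell in WT mice (-2.54, adjusted p = 0.0334). In null mice Car1 fell (-1.88, adjusted p = 0.0377) and Cdx2 rose (1.22, adjusted p = 0.0325). Of 7 fibroblast markers Dcn fell in null mice (-2.18, adjusted p = 0.0445). In treated null against WT mice DESeq2 called Col3a1 and Dcn lower and Actg2, Cnn1, Synm, Muc2 and Slc26a3 higher. It called 1209 of all genes in either direction there. For the difference between the 2 changes DESeq2 called Dcn lower and Actg2 higher. Of 7 markers of plasmacytoid dendritic cells, Ly6d and Il3ra rose in WT mice (3.13, adjusted p = 0.0185 and 1.67, adjusted p = 0.0481) and in null mice (1.89, adjusted p = 0.0498 and 2.63, adjusted p = 0.0153). Of all 14371 genes, 499 and 761 were called higher there. The other markers of the list were not called by edgeR. Siglech, Tcf4, Runx2 and Cox6a2 overlapped between day 0 and day 15 in both genotypes, while Bst2 was higher in both treated mice of each genotype. After thinning, the WT calls of Zap70, Il3ra and Lgr5 were lost. The part that these other tissues and cells have in the marker levels was not tested.

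**Figure D4:**
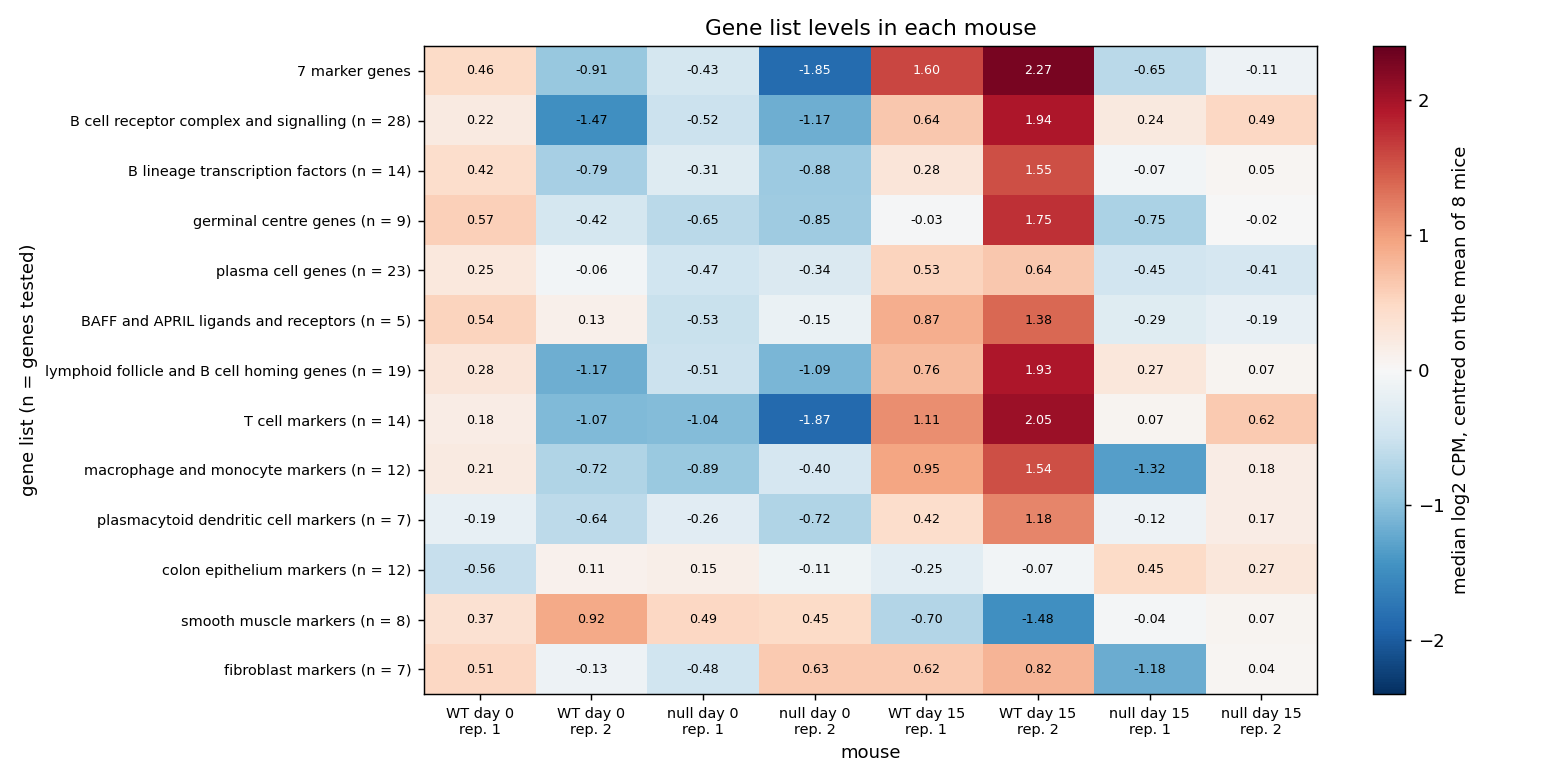
Median log2 CPM of each gene list, centred per gene on the mean of the 8 mice (colour and printed value), for each mouse (x axis) and list (y axis, with the number of genes tested). For the 7 markers the highest values are the 2 WT day 15 mice (1.60 and 2.27) and the lowest is null day 0 replicate 2 (-1.85), and the second WT day 15 mouse is the highest of the 8 for every list but those of colon epithelium and smooth muscle.

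The 10 genes whose log2 CPM followed the mean standardised level of the 7 markers most closely over the 8 mice, of 14364 others, were Cyp7b1, Sh2b2, Adamts7, Plaur, Dram1, Dock2, Havcr2, Cmklr1, Cecr2 and Pik3r5, with Pearson's r from 0.98 to 0.991. None of these 10 was in any of the lists, and none is a B lineage marker. Several are best known from myeloid cells and other leukocytes, such as Plaur, the urokinase receptor, Dock2, a Rac activator, Havcr2 (TIM-3) and Cmklr1, a chemoattractant receptor. Plaur was at 23.7 and 9.13 CPM in WT day 0, 9.77 and 5.39 CPM in null day 0, 43.5 and 70.3 CPM in WT day 15, and 11.9 and 19.0 CPM in null day 15. Since these genes were chosen for following the markers over the same 8 mice, their levels and differences are a description that the choice fixes. In null against WT mice at day 15 the 10 log2 fold changes ran from -2.34 (Sh2b2, adjusted p = 0.0756) to -1.06 (Havcr2, adjusted p = 0.271).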

How the data were processed

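Polyadenylated RNA of the distal colon of 8 mice was sequenced (SENSE mRNA-Seq kit), and the authors deposited raw read counts per gene, made per the labels with STAR against mm10; the counting tool, annotation and use of strand are not given in the sources used here. A deposited DESeq2-normalised table was not used. Each library is taken as 1 mouse, as the labels describe it; nothing says how extractions were batched. The columns were matched to the samples by their labels.

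From these counts, edgeR 4.0.16 (R 4.3.3) fitted 1 quasi-likelihood model with TMM scaling and 1 mean per group to all 8 libraries, for the 14371 of 15859 genes with a mean DESeq2-normalised count above 5. A gene was called at a Benjamini-Hochberg adjusted p under 0.05 and a log2 fold change above 1 in size; these thresholds, on edgeR in place of DESeq2, follow the study's methods. SE is the size of the log2 fold change divided by the square root of its F. Log2 CPM for levels used a prior count of 2, and exon lengths came from GENCODE M21 (GRCm38). The tests were checked on simulated counts. Among 14273 genes, 200 were changed by a log2 fold of 2 between WT day 15 and day 0. Of the 200, edgeR recovered 184 with 8 false calls, and DESeq2 1.42.0 recovered 189 with 16. Recovery at the spread between mice seen for the 7 markers was not tested. In the real counts, Cd79a and Cd79b had log2 fold changes of 2.21 and 2.23 in this comparison and were not called by edgeR.

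Named were the 7 markers, Hsf1, the called genes of each of 13 lists (the 4 with the largest change where more were called, and the 2 most abundant where none was), and the 10 genes most like the markers; all called genes of the plasma cell and follicle lists are given. Genes given only for a call by DESeq2 or after thinning were named after their values were seen. The markers and lists were chosen with earlier results of these data known. Alternatives were DESeq2, its size factors, 2 other filters, a replicate block, only the groups compared, thinning to the smallest library, no fold threshold and leaving out each library; leaving out both small day 0 libraries and crossing the block were added after seeing the data.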

Additional observations from a re-analysis of the deposited data

How the results depend on the processing

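With 2 mice per group the calls of the markers moved with single libraries. In null against WT mice at day 15 the direction of every marker but Ms4a1 and Cd22 held in every alternative run. In WT mice over time, 2 markers (Mzb1 and Pou2af1) were called by DESeq2 and also when only the groups compared were fitted, 0 without both small day 0 libraries, and 0 to 2 when each library was left out in turn. In null mice over time, 1 (Cd22) was called with only the groups compared, and 0 to 2 on leaving out each library. In null against WT mice at day 15, 0 were called with only the groups compared (6 genes in all), 1 without both small libraries, and 0 to 3 on leaving out each library. Fewer libraries leave fewer degrees of freedom for the shared spread. For the difference between the 2 changes DESeq2 called 1 (Pou2af1). DESeq2 called 1739 genes against 1112 in WT mice over time and 1209 against 455 in null against WT mice at day 15.

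Leaving out each library moved the markers' median log2 fold change between 1.46 and 2.85 in WT mice over time, 0.0817 and 2.17 in null mice over time, -2.26 and 0.0406 between untreated genotypes, and -2.15 and 1.06 for the difference between the changes. Signs turned within these ranges: in WT mice over time Ms4a1 (-0.83 to 2.35); in null mice over time Pou2af1 (-0.77 to 0.11), Mzb1 (-0.83 to 0.44) and Tnfrsf17 (-6.39 to 0.40); between untreated genotypes Cd79b (-2.92 to 0.62), Ms4a1 (-2.49 to 0.18), Cd22 (-2.26 to 1.07) and Pou2af1 (-1.19 to 0.0406); at day 15 Ms4a1 (-2.08 to 0.52) and Cd22 (-1.70 to 0.0311); and for the difference between the changes Ms4a1 (-1.37 to 1.82), Cd22 (-2.15 to 1.19), Cd79a (-2.35 to 1.06) and Cd79b (-2.31 to 1.24). Mzb1 in null mice over time also turned on thinning (0.0053) and without both small libraries (0.32). The cause of these shifts was not tested.

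The replicate numbers in the labels are only numbers: same-numbered mice deviated together with a correlation of -0.29 (WT over time), 0.148 (null over time), 0.0395 (day 0) and 0.142 (day 15). With the replicate block the markers called stayed at 1, 0, 0, 2 and 0 in the 5 comparisons, and genes called went from 1112 to 868 in WT mice over time and from 455 to 343 at day 15. Of the 55 calls in the other gene lists, 41 were also made with the block; not made were, in WT mice over time, Plcg2, Vpreb3, Irf4, Zap70, C1qb, Il3ra and Lgr5, in null mice over time Creld2 and Ly6d, and at day 15 Lyn, Prdm1, Tnfsf11, Cxcl12 and C1qb. DESeq2 made 54 of the 55 (not Vpreb3), thinning 51, and the fit without both small libraries 1. With the numbers of the WT day 15 mice crossed, the block called 3 markers and 1016 genes in WT mice over time.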
